A study of Homo sapiens with 8 samples.

Results

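The interferon-stimulated and RNA-sensing genes examined here were 49 genes of the antiviral response, listed by name under 50 symbols because DDX58 is an older symbol of RIGI. A gene was included when a non-control probe of the array carried a RefSeq accession of that gene, whatever its measured value, although the list itself was drawn up with earlier results of these data known. Of these 49 genes, 48 were read by 64 of the 58201 non-control probes, among 47753 genes in all, and IFI27 was not analysed here. Probes of 31 of the 48 genes were bright enough to be compared, and the other 17 genes were too dim in both conditions.

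RNA came from OAW42-R cells, which descend from the serous ovarian cancer line OAW42 and resist cisplatin, so the values describe a single cell line in culture. All flasks received siRNA at 20 nM with the transfection reagent INTERFERin. The control condition (sictrl, 4 arrays) received a nontargeting pool, and the other condition (siUCA1, 4 arrays) received the duplexes numbered 2 and 4 against the long noncoding RNA UCA1. The sample labels place RNA extraction 24 h after transfection, whereas the study's methods give a later time. No untransfected cells were among these arrays, so a response that both kinds of siRNA share cannot be seen, and the comparison asks only whether siUCA1 raised more of an antiviral response than sictrl. Replicates are called A1, M2, A2 and A3, with the same names in sictrl and siUCA1. The methods describe independent experiments but the labels do not, so the p-values measure the spread between these samples, which may be partly technical.

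Cells detect foreign double-stranded RNA in the cytoplasm with the sensors RIG-I (encoded by RIGI) and MDA5 (encoded by IFIH1), which signal through the mitochondrial adaptor MAVS to the transcription factors IRF3 and IRF7 and switch on interferon genes such as IFNB1. Secreted type I interferon binds the receptor made of IFNAR1 and IFNAR2, and a complex that includes STAT2 and IRF9 then binds the interferon-stimulated response element (ISRE) in the promoters of antiviral genes. Interferon gamma acts through its own receptor, which includes IFNGR1, and on genes through gamma-activated sites (GAS). Synthetic duplexes such as siRNAs are themselves double-stranded RNA and in some cells set off this response.

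The promoter stretches that follow show matches to the letters of known interferon response elements, first in 2 genes that fell with siUCA1 and then in 4 that did not pass the test or were too dim to test. They come from the RefSeq promoter sequences of GRCh38.p14, each running 5′ to 3′ on the strand of the gene, and capitals mark the match to the ISRE letters GAAANNGAAA or, for IRF1, to the GAS letters TTCNNNGAA. Both strands were searched, and in IFIT1 the match lies on the opposite strand. The stretches lie at chr15:88638937-88638966 (plus strand) for ISG20, at chr5:132490878-132490907 (minus strand) for IRF1, at chr1:1013380-1013409 (plus strand) for ISG15, at chr15:44711369-44711398 (plus strand) for B2M, at chr11:320876-320905 (minus strand) for IFITM3 and at chr10:89392497-89392526 (plus strand) for IFIT1.
ISG20: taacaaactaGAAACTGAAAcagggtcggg
IRF1: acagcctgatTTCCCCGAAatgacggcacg
ISG15: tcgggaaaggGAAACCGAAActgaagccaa
B2M: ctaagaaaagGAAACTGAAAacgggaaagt
IFITM3: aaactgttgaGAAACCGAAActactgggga
IFIT1: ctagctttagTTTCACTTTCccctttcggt

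A promoter of 300 bases, 250 before and 50 after the annotated start, was given for 37 of the 48 genes. The ISRE letters occurred in 19 of these 37 (51.4%) and in 3.65% of all 27303 promoters of this length. The GAS letters occurred in 8 of the 37 (21.6%) and in 7.88% of all promoters. In some promoters ISRE and GAS matches overlapped, as in BST2, which encodes tetherin. A match only shows that these letters are present, not that a factor binds there.

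On the 8 arrays, between 20858 and 24039 spots were well above background and no spot was saturated. All arrays lay on 1 slide, and each of its 2 rows held 2 arrays of each condition. In 2 arrays, sictrl A3 and siUCA1 A1, the brightness trend over the surface that the scanner software fits and removes was larger (0.321 and 0.287) than on the other arrays (0.0737 to 0.0943), and several of the fold changes that moved without them are given both ways. UCA1, the siRNA target, was at 8.20 ± 0.49 in sictrl and 3.16 ± 0.47 in siUCA1 (SD, n = 4 each, log2 intensity relative to the 75th percentile of the array), which is 97.0% lower. The epithelial markers EPCAM, KRT8, KRT18, KRT19 and CDH1 and the Müllerian factor PAX8 were well above background in this line, whereas WT1, MUC16 and MSLN were too dim to test. CDH1 fell by 0.81 in siUCA1 (adjusted p = 0.0149), and the other 5 did not pass the test, with differences of 0.50 for EPCAM (adjusted p = 0.0675), 0.30 for KRT8, 0.18 for KRT19, -0.10 for KRT18 and -0.16 for PAX8. None of 5 fibroblast markers was bright enough to test. Among the leukocyte markers, CD14 was higher in siUCA1 by 0.70 (adjusted p = 0.0478); its part in the results was not tested.

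The first question was which of the genes these cells expressed at all after transfection. Among the genes commonly used as markers of a type I interferon response, some were measured and others were not. ISG15, IFIT3 and IFI6 were well above background on all 8 arrays and MX1 on 6 of them. Those not well above background on any array included IFNB1 itself, IFIT1, which binds foreign RNA caps, MX2, RSAD2 (viperin), OAS1, OAS2 and OASL of the oligoadenylate synthetase family that senses double-stranded RNA, and IFI44, IFI44L and XAF1. TLR3, the endosomal receptor for double-stranded RNA, and IRF2 were not well above background on any array either, which makes 12 of the 48 genes.

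IFNB1 read between -5.30 and -4.83 on the sictrl arrays and between -5.24 and -4.16 on the siUCA1 arrays on the log2 scale. IFIT1 read between -5.21 and -3.42 in sictrl and between -4.79 and -3.63 in siUCA1. OAS1 read between -5.05 and -3.20 in sictrl and between -5.03 and -2.90 in siUCA1. The dimmest signal that counted as well above background lay between -3.32 and -2.11, depending on the array, and none of these readings counted as such, so they are given no order and no fold change. TLR3 ranged from -4.14 to -3.24 in sictrl and from -5.25 to -3.35 in siUCA1.

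The other 5 untested genes were well above background on some arrays. IFIH1, the gene of the sensor MDA5, was so only on the A3 array of each condition (-2.18 in sictrl and -1.85 in siUCA1), and IFIT2 and OAS3 were detected on those same arrays alone. IFI16, a DNA sensor, was detected on sictrl A2 only. IFIT5 was detected on 3 sictrl and 2 siUCA1 arrays. Between 31 and 35 of the 48 genes were detected on each sictrl array and between 30 and 34 on each siUCA1 array.

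**Figure D1:**
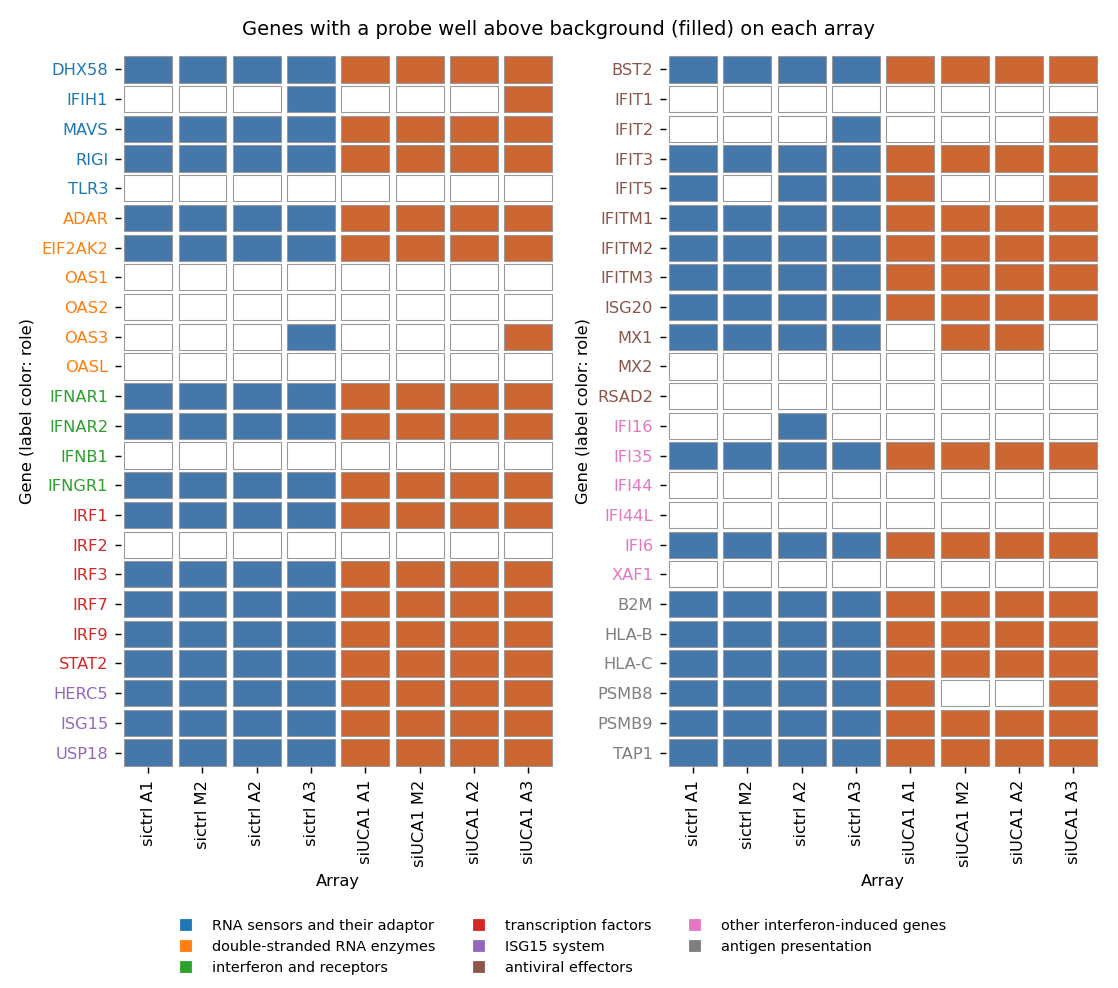
Each row is 1 of the 48 genes and each column an array, and a filled square (blue for sictrl, orange for siUCA1) means that at least 1 probe of the gene was well above background on that array. Rows for IFNB1, IFIT1, MX2, RSAD2, OAS1, OAS2, OASL and others are empty in both conditions, and IFIH1, IFIT2 and OAS3 are filled only on the A3 arrays.

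Among the 31 genes tested, limma's moderated test called 0 higher and 3 lower in siUCA1 at an adjusted p under 0.05. The 3 that fell were IRF7 and IRF1, transcription factors of the response, and ISG20, an exonuclease that degrades viral RNA. Over all 15456 genes tested, 5.72% were called higher and 5.85% lower (11.6% in either direction), so that 49.4% of all calls were higher, a share that fell to 21.3% with median scaling. At an unadjusted p under 0.05, 2 of the 31 genes were higher (HLA-C and B2M) and 8 lower, against 14.5% and 13.1% of all genes. No gene had all its siUCA1 arrays above all its sictrl arrays, which held for 11.2% of all genes, and 6 genes (IRF7, IRF1, IRF3, ISG15, IFNAR1 and MAVS) had all siUCA1 arrays below, which held for 9.67%. In either direction this was 6 of the 31 genes and 20.8% of all genes.

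The count of 0 genes called higher changed when sictrl A3 was left out, alone or with siUCA1 A1. It also changed when arrays were given unequal weight and with the replicate name as a block. That block, with all 8 arrays, called HLA-C higher and IRF7, ISG20, PSMB9 and STAT2 lower. Its share of all genes is given with the processing alternatives below. Leaving out any other single array gave 0. Without sictrl A3, 4 genes were called higher (B2M, HLA-C, IFI6 and USP18) and 1 lower (IRF7), while 7.89% of all genes were then called higher and 5.87% lower. With both sictrl A3 and siUCA1 A1 left out, 17 of the 31 fold changes were above 0, their median was 0.08, and 5 were called higher (the same 4 and IRF9) and 3 lower (IRF1, IRF3 and IRF7), beside 12.9% and 11.4% of all genes. With arrays weighted by their quality, 4 were higher and 6 lower, beside 16.5% and 14.5% of all genes. The part of the surface trend in these differences was not tested.

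The fold changes of the 31 genes ran from -1.04 for ISG20 to 0.89 for HLA-C on the log2 scale, with 14 above 0 and 17 below. Those below include MX1 and PSMB8, which entered the test only through sictrl, a choice that favors a difference below 0. Both also count in the median and the intervals that follow. The median of the 31 genes was -0.03, against 0.03 over all genes tested. The upper end of the 95% interval was under a log2 change of 1 for 28 of the 31. That is 90.3%, against 93.5% of all genes tested. The 3 exceptions were HLA-B, HLA-C and B2M, all of class I antigen presentation. For the 28, a rise to double the sictrl level lies outside the interval in this fit of all 8 arrays. Without sictrl A3 and siUCA1 A1 some of them differed by more, such as IFI6, USP18, IRF9 and DHX58, and others by less, such as HERC5. Intervals for such fits are not given here. The standard errors had a median of 0.165, close to the 0.147 of all genes.

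**Figure D2:**
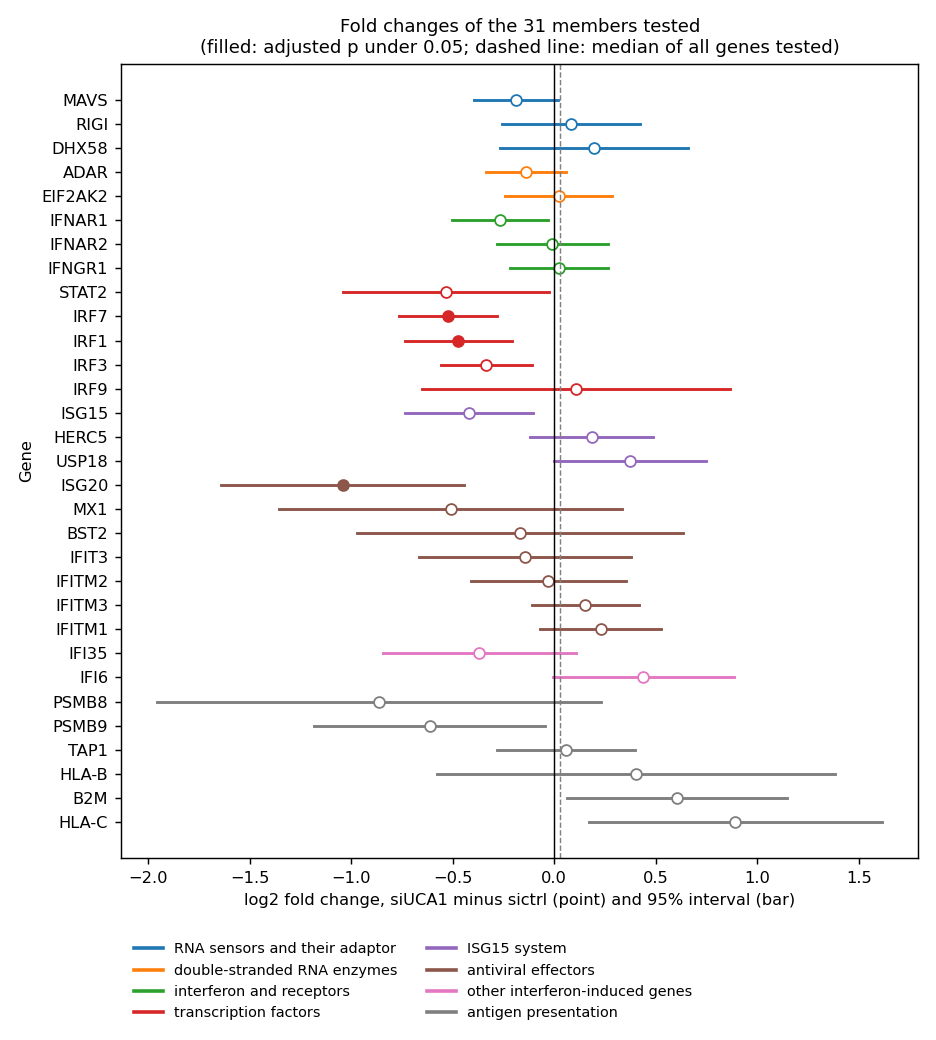
Points are log2 fold changes (siUCA1 minus sictrl) of the 31 genes tested and bars their 95% intervals, colored by role. Filled points, for IRF7, IRF1 and ISG20, passed an adjusted p under 0.05, all on the lower side, and HLA-C at 0.89 is the farthest point on the higher side.

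**Figure D3:**
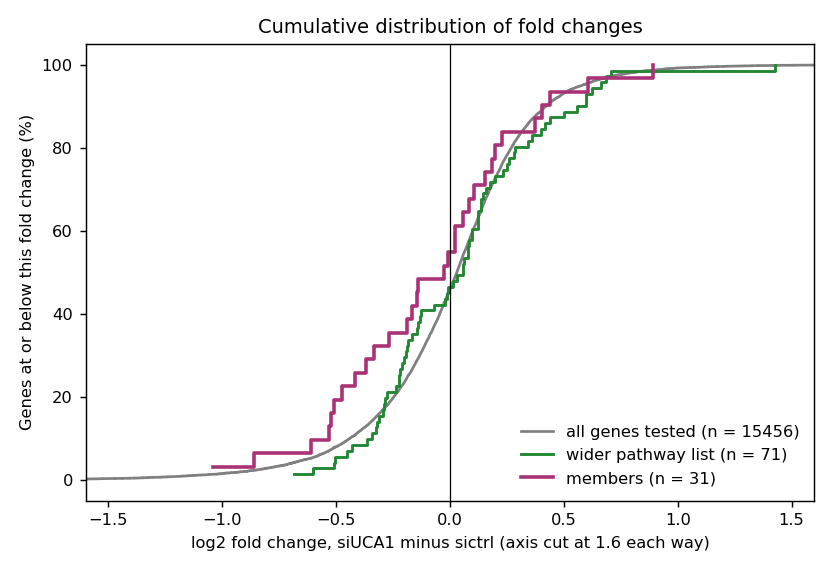
Curves give the share of genes (%) at or below each log2 fold change for the 31 genes (members), a wider pathway list of 71 genes and all 15456 genes tested. The 3 medians are -0.03, 0.06 and 0.03, and the curve of the 31 genes lies above the others between about -0.5 and 0. The 31 genes include MX1 and PSMB8, which entered the test only through sictrl.

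The sensors and their adaptor did not pass the test. RIGI was at -1.11, -0.80, -1.14 and -0.55 on the sictrl arrays (A1, M2, A2, A3) and at -1.01, -0.69, -0.85 and -0.72 on the siUCA1 arrays. The groups overlapped and the difference was 0.08 (95% interval -0.26 to 0.42, adjusted p = 0.770), turning to -0.01 with median scaling and to 0.26 (adjusted p = 0.142) without sictrl A3 and siUCA1 A1. DHX58, whose product LGP2 modulates both sensors, was at 0.09, 0.24, 0.19 and 0.83 in sictrl and at 0.27, 0.49, 0.39 and 0.99 in siUCA1. Its siUCA1 value was the higher one in all 4 pairs of arrays that share a replicate name. The difference of 0.20 (-0.26 to 0.66, adjusted p = 0.581) was smaller than the gap between A3 and the other arrays, which both conditions shared. Without sictrl A3 and siUCA1 A1 the difference was 0.45 (adjusted p = 0.0893). MAVS was at 5.15, 5.25, 5.38 and 5.15 in sictrl and at 5.01, 4.99, 5.08 and 5.09 in siUCA1. The siUCA1 arrays lay below every sictrl array, by 0.19 on average (adjusted p = 0.219), but its 4 probes ranged from -0.27 to 0.07.

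The enzymes that act on double-stranded RNA showed small differences. EIF2AK2, the kinase PKR that halts translation when it binds double-stranded RNA, was at 4.10, 4.01, 4.08 and 4.42 in sictrl and at 4.22, 4.07, 4.10 and 4.31 in siUCA1. The groups overlapped throughout, and the difference of 0.02 (-0.24 to 0.29, adjusted p = 0.928) turned to -0.07 with median scaling. ADAR, which edits adenosines in double-stranded RNA, was at 6.01, 6.01, 5.91 and 5.99 in sictrl and at 5.94, 5.80, 5.74 and 5.89 in siUCA1. Its siUCA1 value was the lower one in all 4 pairs of arrays that share a replicate name, with a mean difference of -0.14 (-0.34 to 0.06, adjusted p = 0.339).

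Of the receptor genes, IFNAR1 was at 0.85, 1.14, 0.92 and 1.14 in sictrl and at 0.74, 0.63, 0.76 and 0.84 in siUCA1. The siUCA1 arrays all lay below, by 0.27 (SE 0.10, adjusted p = 0.139). IFNAR2 and IFNGR1 differed by -0.01 and 0.02.

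The transcription factors held 2 of the 3 calls, and 4 of the 5 tested had a lower mean in siUCA1, as did 45.9% of all genes, of which 5.85% were called lower. IRF7, the factor that amplifies interferon production, was at 3.19, 3.35, 3.60 and 3.34 on the sictrl arrays (A1, M2, A2, A3) and at 2.83, 2.76, 2.89 and 2.91 on the siUCA1 arrays. Every siUCA1 array lay below every sictrl array, and the replicates within a condition were close. IRF7 fell by 0.52 (SE 0.11, 95% interval -0.77 to -0.28, limma adjusted p = 0.0174), which is 1.44-fold lower, and the exact permutation p of 0.0286 was the smallest that 4 arrays against 4 allow. Its adjusted p exceeded 0.05 when sictrl M2 (0.0545), sictrl A2 (0.0523), siUCA1 M2 (0.0572) or siUCA1 A2 (0.0528) was left out, with fold changes between -0.58 and -0.45 over the 8 fits that leave out 1 array. It also exceeded 0.05 with median scaling (0.147), with normexp background correction (0.0647) and with no detection filter (0.309).

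IRF1, first known as a regulator of the interferon beta gene and itself induced by interferon gamma, was at -0.58, -0.85, -0.47 and -0.58 in sictrl and at -1.06, -1.13, -1.25 and -0.92 in siUCA1. The groups did not overlap, although sictrl M2 and siUCA1 A3 came close to each other. IRF1 fell by 0.47 (SE 0.12, 95% interval -0.74 to -0.21, adjusted p = 0.0342), or 1.39-fold, with an exact permutation p of 0.0286. The call was lost without sictrl A1 (adjusted p = 0.0862), sictrl A2 (0.104), sictrl A3 (0.0522), siUCA1 M2 (0.0909) or siUCA1 A2 (0.106), and over the 8 fits that leave out 1 array the fold change ran from -0.55 to -0.42. In all the call was lost in 11 of 21 alternatives. Among them were median scaling (0.215), normexp (0.199), no detection filter (0.421) and slide row as a block (0.0573). The others included the replicate name as a block and the trend and robust settings of eBayes (0.0541).

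IRF3, which RNA sensors activate without new synthesis, was at 2.61, 2.48, 2.62 and 2.70 in sictrl and at 2.38, 2.10, 2.33 and 2.27 in siUCA1. The groups did not overlap and the difference was -0.33 (SE 0.10, adjusted p = 0.0623), with -0.37 at its other probe. IRF3 was called lower in 5 of 21 alternatives, among them quantile normalization, array weights and the fit without siUCA1 A1. STAT2 was at 3.08, 3.57, 3.49 and 3.89 in sictrl and at 2.42, 3.02, 3.24 and 3.22 in siUCA1. The siUCA1 value was lower in all 4 same-named pairs but the groups overlapped. The difference of -0.53 (SE 0.22, adjusted p = 0.162) shrank to -0.22 (adjusted p = 0.313) without sictrl A3 and siUCA1 A1. With the replicate name as a block STAT2 was called lower. IRF9 was at -1.96, -1.67, -1.89 and -0.42 in sictrl and at -1.75, -1.50, -1.25 and -1.01 in siUCA1. The single sictrl A3 value was the highest of all 8, and the difference was 0.11 (SE 0.33) with that array and 0.46 without it, and 0.59 (adjusted p = 0.0310) when siUCA1 A1 was left out as well.

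ISG15 encodes a small protein that is attached to other proteins after interferon treatment, HERC5 the ligase that attaches it and USP18 the protease that removes it. ISG15 was at 3.18, 3.27, 3.45 and 3.78 in sictrl and at 3.05, 2.85, 3.06 and 3.04 in siUCA1. The siUCA1 arrays lay below every sictrl array, by 0.42 (SE 0.14, adjusted p = 0.0877). USP18 had the opposite sign, with 0.67, 0.95, 0.98 and 1.43 in sictrl and 1.14, 1.49, 1.40 and 1.49 in siUCA1. The siUCA1 value was higher in all 4 same-named pairs, and the difference of 0.37 (adjusted p = 0.184) became 0.51 (adjusted p = 0.0388) without sictrl A3 and 0.59 (adjusted p = 0.0110) when siUCA1 A1 was left out as well. HERC5 differed by 0.18 (adjusted p = 0.415), and by 0.06 without sictrl A3 and siUCA1 A1.

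**Figure D4:**
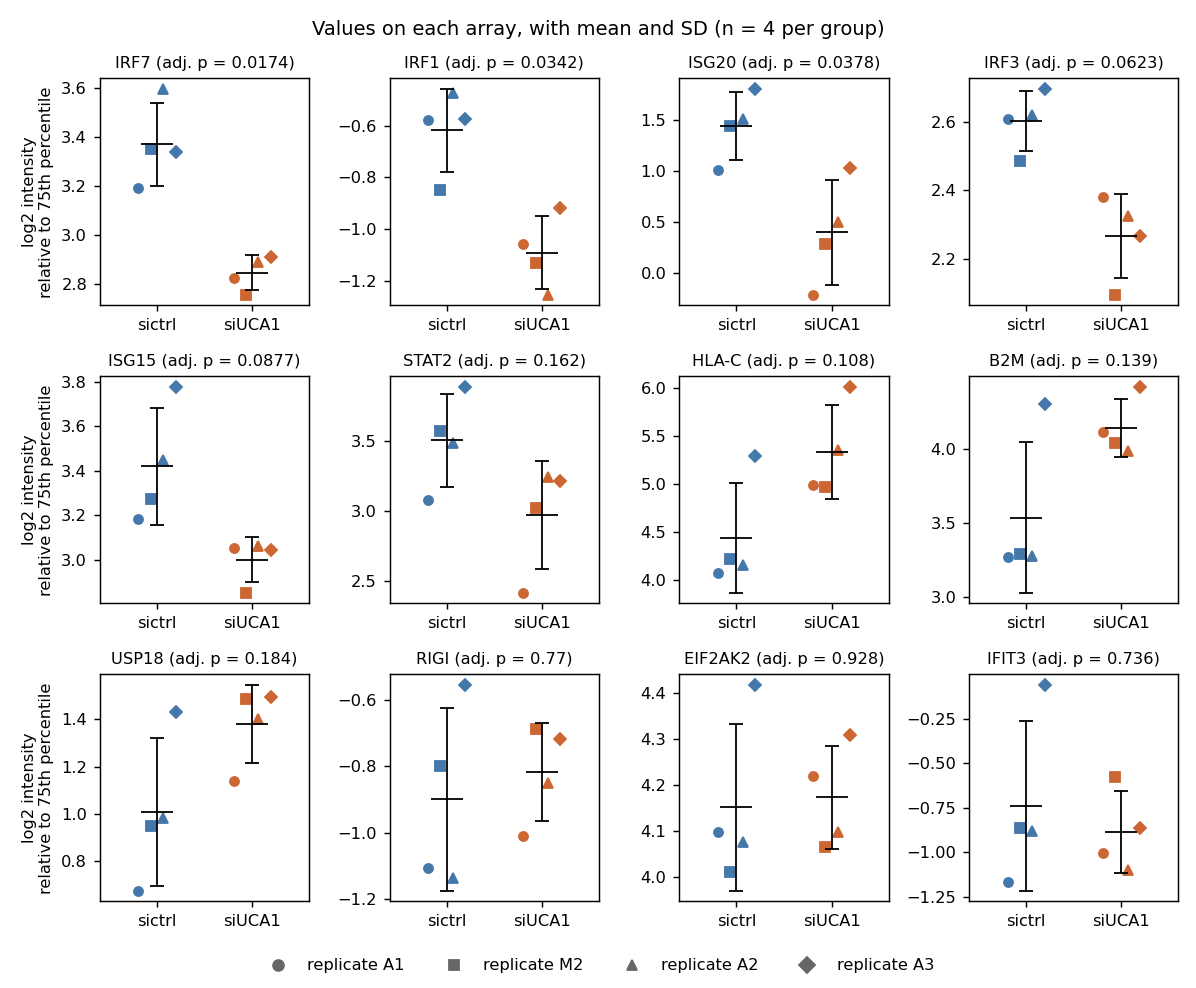
Each point is the log2 intensity of 1 array relative to the 75th percentile of that array, and black bars give the mean and SD of the 4 arrays of a condition, with a different vertical scale in each panel. IRF7, IRF1, IRF3 and ISG15 show no overlap between conditions, and in HLA-C, B2M and USP18 the sictrl A3 point (diamond) lies far above the other sictrl points.

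Among the antiviral effectors, ISG20 was at 1.00, 1.44, 1.51 and 1.80 in sictrl and at -0.22, 0.28, 0.50 and 1.03 in siUCA1. The siUCA1 value was the lower one in all 4 same-named pairs, while siUCA1 A3 at 1.03 just exceeded sictrl A1 at 1.00. ISG20 fell by 1.04 (SE 0.26, 95% interval -1.64 to -0.44, adjusted p = 0.0378), which is 2.06-fold lower, with an exact permutation p of 0.0571. In RNA from whole cultures, fewer cells expressing a gene and less RNA per cell cannot be told apart. The call was lost without sictrl M2 (adjusted p = 0.0933), sictrl A2 (0.0996), sictrl A3 (0.0674), siUCA1 M2 (0.0975) or siUCA1 A2 (0.0897), and with sictrl A3 and siUCA1 A1 both left out the fold change was -0.71 (adjusted p = 0.0589). The call was also lost with normexp (0.0968, at a fold change of -0.76), no detection filter (0.270) or slide row as a block (0.0618).

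The other effectors did not pass the test. IFITM3, a membrane protein that blocks virus entry, was at 7.44, 7.33, 7.46 and 7.53 in sictrl and at 7.79, 7.34, 7.56 and 7.69 in siUCA1. Its siUCA1 value was the higher one in all 4 same-named pairs of arrays, by 0.15 on average (adjusted p = 0.434), and IFITM1 and IFITM2 differed by 0.23 and -0.03. The 3 IFITM genes are near-identical neighbors, and a probe of 1 may also read the others. MX1, a GTPase against influenza and related viruses, was at -2.40, -1.54, -2.64 and -1.29 in sictrl and at -2.46, -2.63, -1.70 and -3.13 in siUCA1. It was well above background on only 2 of the siUCA1 arrays and entered the test only through sictrl, and its difference of -0.51 had an SE of 0.37 and was -0.29 without sictrl A3 and siUCA1 A1. IFIT3 and BST2 differed by -0.14 and -0.17, and both changed sign without the arrays sictrl A3 and siUCA1 A1 (0.12 and 0.17).

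Of the remaining interferon-induced genes, IFI6, a survival factor of the mitochondria and endoplasmic reticulum, was at -2.02, -1.74, -1.62 and -1.05 in sictrl and at -1.39, -1.18, -1.08 and -1.03 in siUCA1. It was higher in all 4 same-named pairs, by 0.44 (adjusted p = 0.186), by 0.63 (adjusted p = 0.0241) without sictrl A3, and by 0.70 (adjusted p = 0.00960) without both sictrl A3 and siUCA1 A1. IFI35 differed by -0.37 (adjusted p = 0.292), and by -0.08 without sictrl A3 and siUCA1 A1.

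The antigen presentation genes spread in both directions, and none passed the test. Their median was 0.23 over 6 genes, with PSMB8 among them, which entered the test only through sictrl. With the replicate name as a block, HLA-C was called higher and PSMB9 lower. HLA-C, a class I heavy chain, was at 4.08, 4.23, 4.16 and 5.29 in sictrl and at 4.99, 4.97, 5.35 and 6.01 in siUCA1. B2M, the light chain that all class I molecules share, was at 3.27, 3.29, 3.28 and 4.30 in sictrl and at 4.12, 4.04, 3.99 and 4.42 in siUCA1. In both genes sictrl A3 alone overlapped the siUCA1 arrays and the other 3 sictrl arrays lay below all of them. HLA-C was higher by 0.89 (95% interval 0.17 to 1.62, adjusted p = 0.108) and B2M by 0.60 (0.06 to 1.14, adjusted p = 0.139). Without sictrl A3 the differences were 1.18 (adjusted p = 0.0223) and 0.86 (adjusted p = 0.00760), and with siUCA1 A1 left out as well they were 1.29 (adjusted p = 0.0138) and 0.87 (adjusted p = 0.00650).

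HLA-B was at 1.31, 1.04, 1.30 and 1.61 in sictrl and at 0.58, 1.95, 1.39 and 2.97 in siUCA1. The siUCA1 arrays spread over both sides of sictrl, and the difference of 0.40 had an SE of 0.43 and was 0.88 (adjusted p = 0.129) without sictrl A3 and siUCA1 A1 but -0.01 without siUCA1 A3. A second HLA-B probe differed by 0.79 (adjusted p over all probes = 0.212). Class I heavy chains share much of their sequence and vary between people, so probes of HLA-B and HLA-C may read each other's transcripts. The immunoproteasome subunit PSMB9 differed by -0.61 (adjusted p = 0.153), and by -0.33 without sictrl A3 and siUCA1 A1. PSMB8, another subunit, was detected on all 4 sictrl and 2 of 4 siUCA1 arrays and entered the test only through sictrl, a choice that favors a difference below 0. Its difference was -0.86 (adjusted p = 0.286), and -0.24 with normexp. TAP1, which carries peptides into the endoplasmic reticulum, differed by 0.06 (adjusted p = 0.848), and by 0.17 without sictrl A3 and siUCA1 A1.

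A listed promoter allowed the fold changes to be set beside the ISRE. The 12 tested genes with the ISRE letters had 7 fold changes above 0 and 5 below, with a median of 0.04 and 1 call (ISG20, lower). The 13 tested genes without them had 5 above 0 and 8 below, with a median of -0.19 and 1 call (IRF1, lower). MX1, among the genes with the letters, and PSMB8, among those without, entered the test only through sictrl. Without sictrl A3 and siUCA1 A1, 9 of the 12 genes with the letters were above 0 (median 0.12), as were 5 of the 13 without them (median -0.17). The difference between these groups of genes was not tested.

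The 31 genes deviated together on some arrays. On sictrl A3, 23 of the 31 had the highest value of the 4 sictrl arrays, against 44.6% of all genes, and their median deviation from the group mean was 0.36, against 0.05 for all genes. On siUCA1 A3, 20 of the 31 were the highest of their condition, against 25.0% of all genes, with a median deviation of 0.14. In the pair of A3 arrays, 20 of the 31 were lower in siUCA1 with a median difference of -0.16, whereas 18 of 31 were higher in the A1 pair with a median of 0.10. The medians of the M2 and A2 pairs were -0.03 and 0.01. The siUCA1 value was higher in all 4 same-named pairs for DHX58, IFNGR1, USP18, HERC5, IFITM1, IFITM3, IFI6, HLA-C and B2M. It was lower in all 4 for MAVS, ADAR, IFNAR1, IRF1, IRF3, IRF7, STAT2, ISG15, ISG20, IFI35 and PSMB9. How often all genes tested agreed in this way was not counted.

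**Figure D5:**
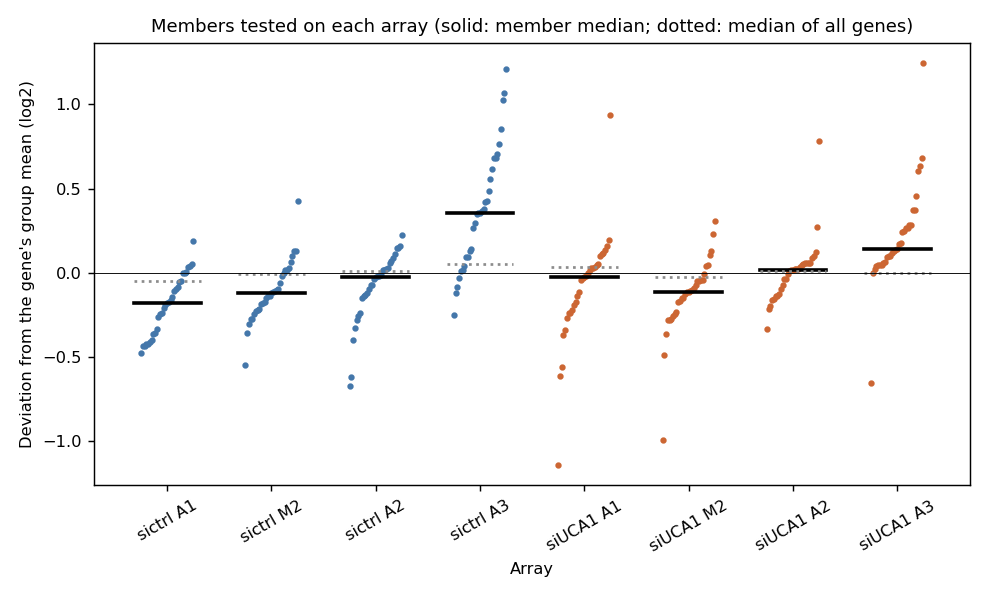
Points are the deviations (log2) of the 31 genes on each array from the mean of their own condition, solid lines the median over these genes and dotted lines the median over all genes tested. The solid line is at 0.36 on sictrl A3 and at 0.14 on siUCA1 A3, both above the dotted line.

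A wider list of the same pathway held 118 genes, of which 115 were on the array and 71 tested. In it 4 genes were called higher and 1 lower, beside 5.72% and 5.85% of all genes, and the median was 0.06. None of the 15 tested genes of nucleic acid sensing was called, and 1 of them had an unadjusted p under 0.05. The kinase TBK1, which activates IRF3, differed by 0.12 (adjusted p = 0.474).

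ZC3HAV1, which encodes the zinc-finger antiviral protein that binds CG-rich viral RNA, was at 2.15, 2.51, 2.29 and 3.26 in sictrl and at 3.70, 4.17, 4.01 and 4.05 in siUCA1. Every siUCA1 array lay above every sictrl array at this probe, by 1.43 (SE 0.23, adjusted p = 0.00791). Its other probe was at 1.37, 1.47, 1.56 and 1.59 in sictrl and at 1.77, 1.46, 1.39 and 1.45 in siUCA1. That probe differed by 0.02 (adjusted p = 0.939), so the rise was seen at 1 of its 2 probes. The mean of both differed by 0.72 (adjusted p = 0.0140).

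IFNLR1, the specific chain of the interferon lambda receptor, was at -0.82, -1.24, -0.85 and -1.10 in sictrl and at 0.01, -0.52, -0.44 and -0.39 in siUCA1. It rose by 0.66 (SE 0.15, adjusted p = 0.0250) with no overlap. LAMP3, a lysosomal membrane protein, rose by 0.68 (adjusted p = 0.0222), and CALR, the chaperone calreticulin that helps class I molecules fold, by 0.56 (adjusted p = 0.0396). WARS1, a tryptophan-tRNA synthetase induced by interferon gamma, fell by 0.45 (adjusted p = 0.0391). All arrays of the 2 conditions were apart in these 3 genes as well. ZC3HAV1 kept its call in 20 of the 21 alternatives, IFNLR1 and LAMP3 in 14, WARS1 in 10 and CALR in 9. None of the 5 was called with no detection filter, and only ZC3HAV1 was called with median scaling or normexp.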

How the data were processed

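Gene expression in sictrl- and siUCA1-transfected OAW42-R cells was measured with 8 one-color Agilent arrays, 4 of each condition, and groups and replicate names were taken from the sample labels. The authors deposited the Feature Extraction output (version 10.7.3.1 per the submitters' processing notes), in which the processed signal is a background-subtracted intensity on a linear scale that was not normalized between arrays. The deposited values of the series as a whole held the same intensity (largest relative difference 0). The signal was put on a log2 scale and set relative to the 75th percentile of each array, taken over its non-control spots. Control and outlier spots (76 to 132 per array) were left out and spots of 1 probe averaged. A probe was kept when at least 0.5 of its spots were well above background on all 4 arrays of 1 condition, which left 19047 probes, and the brightest kept probe stood for each of 15456 genes. Probe accessions were matched to RefSeq gene symbols of GRCh38.p14 (31104 probes matched), and the genome build of the array design is not given in the sources used here.

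Conditions were compared over all genes with limma 3.58.1 (lmFit and eBayes, two-sided, as named in the study's methods) in R 4.3.3 with data.table (version 1.17.8), with Benjamini-Hochberg adjustment at 0.05. For each gene named, a two-sided exact permutation test over the 70 labelings was added. Promoters were searched in Python 3.11.15 and figures drawn with matplotlib 3.10.9. On data simulated for this comparison with 200 of 15447 genes shifted by 1 on the log2 scale, 70.6% were found and 4.91% of calls were false, on average over 5 simulations.

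The genes and lists were chosen with earlier results of these data known. Described in full were the genes called in either direction, a fixed set of sensors, signal transducers, effectors and antigen presentation genes whatever their test gave, and the called genes of the wider list; values of USP18, HLA-C, IFI6 and other genes outside that set were added after they were seen. Alternatives were quantile or median scaling, normexp (offset 50), other detection filters, mean probes, blocks for replicate name and slide row, trend and robust eBayes, array weights, outlier spots kept, dim values raised to the detection limit, and arrays left out. No correlation was tested and no gene set test was made. Precision was limited by having 4 arrays per condition. The deviations of same-named arrays correlated at 0.0384 for A1, 0.278 for M2, 0.216 for A2 and 0.127 for A3 over genes. The replicate names were not taken as pairs in the main test, because the A1 correlation was low and the labels name no shared experiment. Those of M2, A2 and A3 were higher, and a block for replicate name is among the alternatives. Agreement between same-named arrays is given only as a description. Some genes of the wider list and of the marker lists are not reported here.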

Additional observations from a re-analysis of the deposited data

Results flagged for a closer look

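The 31 genes, their median deviation on each array and the surface trend, each in both conditions, gave 66 sets of 4 arrays, and in 5 of them (7.58%) 1 array stood apart from the other 3 beyond Dixon's 95% critical value for the gap as a share of the range, where chance gives about 5%. B2M on sictrl A3 was at 4.30, with the other sictrl values between 3.27 and 3.29 (gap over range 0.981). HLA-C on the same array was at 5.29, against 4.08 to 4.23 (0.880). The fitted brightness trend reached 0.321 on sictrl A3, where the other sictrl values ran from 0.0790 to 0.0925 (0.944). On siUCA1 A1 it reached 0.287, where the other siUCA1 values ran from 0.0737 to 0.0943 (0.903). ISG15 on siUCA1 M2 was at 2.85, against 3.04 to 3.06 on the other siUCA1 arrays (0.918). Sictrl A3 was thus the array apart in 3 of the 5 sets, and the part of the surface trend in the B2M and HLA-C values was not tested.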

How the results depend on the processing

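The median log2 fold change of the 31 genes lay between -0.13 and 0.08 over 21 alternatives, within the spread between arrays (0.20). The number of genes called higher or lower varied more. Median scaling left 1 lower and, in the wider list, 1 higher and 0 lower, and 114 of 535 calls over all genes were then higher (21.3%, against 49.4%). Over all genes tested, 11.6% were called, against 3.46% with median scaling, 2.69% with normexp, 0.159% with no detection filter, 11.2% with the replicate name as a block, 8.22% with slide row as a block, 24.3% without sictrl A3 and siUCA1 A1 and 31.1% with array weights. Normexp left 0 lower, with 1 higher and 0 lower in the wider list, and no detection filter left 0 of each. With slide row as a block, 1 gene was lower and the wider list had 0 lower. With the replicate name as a block, 1 gene was higher (HLA-C) and 4 lower (IRF7, ISG20, PSMB9 and STAT2), IRF1 was not called (adjusted p = 0.0572), and the wider list had 6 higher and 2 lower. Array weights gave 4 higher and 6 lower, and 15 and 6 in the wider list. Without sictrl A3 and siUCA1 A1, 5 were higher and 3 lower, and 13 and 5 in the wider list. Leaving out 1 array gave 0 to 4 higher and 0 to 4 lower genes, and 1 to 11 and 0 to 2 in the wider list. IRF7 kept its call in 14 of the 21 alternatives, ISG20 in 12 and IRF1 in 10.

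Small fold changes turned sign. EIF2AK2 was -0.0079 with quantile normalization, -0.0098 with normexp, -0.011 with mean probes and -0.074 with median scaling, which also gave -0.012 for RIGI, -0.074 for IFNGR1 and -0.038 for TAP1. IFIT3, IFITM2 and BST2 were 0.0028, 0.031 and 0.037 with array weights and 0.12, 0.075 and 0.17 without both arrays. Over the fits leaving out 1 array, the range was -0.024 to 0.11 for EIF2AK2, -0.063 to 0.082 for IFNAR2, -0.036 to 0.080 for IFNGR1, -0.052 to 0.46 for IRF9, -0.29 to 0.083 for IFIT3, -0.12 to 0.11 for IFITM2, -0.37 to 0.18 for BST2, -0.032 to 0.18 for TAP1 and -0.011 to 0.79 for HLA-B. The main scaling and median scaling each subtract a constant from every array, so median scaling moved all fold changes down by the same amount. The cause of the other changes was not tested. Dim genes limit the comparison, since 17 of 48 could not be tested.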
